A study of Mus musculus with 51 samples.

Results

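The distal end of mouse chromosome 7 (GRCm38) was examined from 12.3 Mb on the centromeric side of the Kcnq1ot1 start (position 143296549, minus strand) to 2.1 Mb on its telomeric side. The stretch from 0.75 Mb before to 0.5 Mb after this start was left out, since it holds the Kcnq1ot1 imprinted cluster itself. All peaks of H3K27me3, H3K4me3 and H3K36me3 in these 13.15 Mb were taken as members. In extra-embryonic ectoderm (ExE) these were 155 of 22515 autosomal H3K27me3 peaks, 243 of 40468 H3K4me3 peaks and 65 of 12871 H3K36me3 peaks. In epiblast they were 127 of 11810, 216 of 33329 and 91 of 23959 peaks. Total signal was read from 1315 of 246268 autosomal tiles of 10 kb. The boundaries were chosen because wild-type ExE carries more H3K27me3 on the paternal copy here, so every H3K27me3 call or comparison that uses the wild-type ExE libraries, total signal included, is given as a description and not as a test of the region.

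Kcnq1ot1 is a long non-coding RNA transcribed from the paternal chromosome, where its promoter inside the Kcnq1 gene is unmethylated. The maternal promoter is methylated in the oocyte and silent. In trophoblast the RNA is known to act in cis, and Polycomb complexes deposit H3K27me3, a mark of repressed chromatin, over neighbouring genes of the paternal copy. H3K4me3 marks active or poised promoters, and H3K36me3 lies along transcribed gene bodies.

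Embryos were collected at embryonic day 6.5, and epiblast (nominally 4 embryos) or ExE (nominally 8 embryos) was pooled for ultra-low-input native ChIP-seq. Each mark and tissue has 2 libraries of B6/CAST, 2 of CAST/B6 and 2 of matDKO/CAST, with the mother named first. B6 is C57BL6/Babr and CAST is CAST/EiJ, and embryos of these reciprocal crosses carry no targeted allele. In matDKO/CAST, B6/129 mothers with floxed Dnmt3a and Dnmt3b and the oocyte-specific Zp3-cre were mated with CAST males, so that the embryos lack the DNA methylation normally laid down in the oocyte and inherit deleted maternal copies of both genes. The 129 background and the maternal genotype cannot be told apart in any comparison with wild type.

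The promoters of 7 genes of the region are given from RefSeq on GRCm38.p6, with 250 bases before and 50 bases after the start, 5′ to 3′ on the gene's strand. Every CG dinucleotide is in capitals, since CG-rich promoters are usual sites of both H3K4me3 and Polycomb marks. Ano1 and Fgf3 lie on the telomeric side of Kcnq1ot1 and Dusp8 next to the left-out stretch on the centromeric side. Nkx6-2, Tcerg1l and Cpxm2 lie at increasing distance on that side, and Hras stands in a stretch without a wild-type call. Those of Shank2, Ccnd1 and Fgf15 are not shown here.
Ano1, chr7:144738524-144738823, minus strand: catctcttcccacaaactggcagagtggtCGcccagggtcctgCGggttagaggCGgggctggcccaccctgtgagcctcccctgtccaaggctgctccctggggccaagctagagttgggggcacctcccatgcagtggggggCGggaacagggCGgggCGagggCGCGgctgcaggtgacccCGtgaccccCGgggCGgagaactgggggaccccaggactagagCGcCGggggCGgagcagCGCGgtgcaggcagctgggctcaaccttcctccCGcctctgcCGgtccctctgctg
Fgf3, chr7:144838362-144838661, plus strand: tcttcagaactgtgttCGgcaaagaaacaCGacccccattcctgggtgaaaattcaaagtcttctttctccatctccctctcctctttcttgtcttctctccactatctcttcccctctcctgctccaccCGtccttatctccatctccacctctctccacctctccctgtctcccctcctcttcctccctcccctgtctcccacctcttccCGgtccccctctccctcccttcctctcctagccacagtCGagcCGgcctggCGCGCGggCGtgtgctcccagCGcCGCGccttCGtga
Dusp8, chr7:142095235-142095534, minus strand: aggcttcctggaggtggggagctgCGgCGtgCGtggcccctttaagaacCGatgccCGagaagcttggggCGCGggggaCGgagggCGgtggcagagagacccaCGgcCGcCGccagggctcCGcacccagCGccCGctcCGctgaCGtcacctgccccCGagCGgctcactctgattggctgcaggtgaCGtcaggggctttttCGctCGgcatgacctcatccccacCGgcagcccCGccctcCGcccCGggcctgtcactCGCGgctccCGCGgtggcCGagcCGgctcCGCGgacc
Nkx6-2, chr7:139582748-139583047, minus strand: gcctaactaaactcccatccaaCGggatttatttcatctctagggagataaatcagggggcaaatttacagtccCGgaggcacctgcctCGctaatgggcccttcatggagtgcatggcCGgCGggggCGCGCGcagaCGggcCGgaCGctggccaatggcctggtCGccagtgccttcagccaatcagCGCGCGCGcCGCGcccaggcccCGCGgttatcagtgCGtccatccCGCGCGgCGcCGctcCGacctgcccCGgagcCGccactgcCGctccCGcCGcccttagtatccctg
Tcerg1l, chr7:138397681-138397980, minus strand: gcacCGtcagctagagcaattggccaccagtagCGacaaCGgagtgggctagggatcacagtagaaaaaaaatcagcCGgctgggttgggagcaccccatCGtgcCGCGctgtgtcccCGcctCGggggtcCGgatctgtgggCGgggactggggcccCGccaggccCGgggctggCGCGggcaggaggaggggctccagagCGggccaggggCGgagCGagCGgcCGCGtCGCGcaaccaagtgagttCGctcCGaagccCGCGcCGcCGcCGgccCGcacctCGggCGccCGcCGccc
Cpxm2, chr7:132154692-132154991, minus strand: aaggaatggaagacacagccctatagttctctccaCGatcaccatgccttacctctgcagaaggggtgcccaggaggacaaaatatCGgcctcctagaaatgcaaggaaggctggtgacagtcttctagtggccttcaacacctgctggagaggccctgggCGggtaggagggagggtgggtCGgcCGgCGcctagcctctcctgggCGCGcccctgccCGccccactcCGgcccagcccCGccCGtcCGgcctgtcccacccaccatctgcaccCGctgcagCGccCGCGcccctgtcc
Hras, chr7:141193955-141194254, minus strand: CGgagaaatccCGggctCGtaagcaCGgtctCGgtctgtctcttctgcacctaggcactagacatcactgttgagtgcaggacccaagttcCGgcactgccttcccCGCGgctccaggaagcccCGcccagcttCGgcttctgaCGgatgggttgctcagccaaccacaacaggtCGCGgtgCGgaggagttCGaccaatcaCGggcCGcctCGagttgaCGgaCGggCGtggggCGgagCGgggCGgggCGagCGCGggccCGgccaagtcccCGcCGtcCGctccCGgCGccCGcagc

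The letters CG, which read the same on both strands, occur 18 times in the Ano1 promoter, and 29.7% of the 32817 RefSeq promoters hold as many. The counts are 14 for Fgf3 (36.3% of promoters hold as many), 34 for Dusp8 (7.73%), 32 for Nkx6-2 (9.53%), 35 for Tcerg1l (6.96%), 17 for Cpxm2 (31.4%) and 34 for Hras (7.73%). The promoters inside ExE H3K27me3 peaks called imprinted had a median of 3 CG (n = 63) and those inside the other informative peaks 4 (n = 75), against 7 over all promoters. All promoters shown hold more CG than these medians, and Hras holds as many as Dusp8.

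ChIP libraries held 2.09 to 22.9 M (mega) reads in the window table, and 0.271 to 6.82 M reads in autosomal peaks could be assigned to a parent. Over the region, 43621 to 124111 allelic reads per library were counted for ExE H3K27me3 and 3365 to 23167 for epiblast H3K27me3. Wilson 95% intervals of a library's paternal share over the region were within ± 0.271 to 0.469 percentage points in ExE and ± 0.642 to 1.68 points in epiblast for this mark. For the 20 imprinted ExE peaks with the most reads they were within ± 0.816 to 4.57 points, and they reached ± 20.9 points over all imprinted and ± 23.8 points over all jointly parental ExE peaks. All these intervals cover counting error only. Outside the region, the paternal share over all other autosomal peaks of a table was 47.2 to 51.2% in wild-type libraries and 44.1 to 48.9% in matDKO/CAST libraries, in which a second alignment by the authors added reads to the maternal count alone. The tissues were checked by H3K4me3 at the promoters of marker genes. Of 8 epiblast markers 5, among them Pou5f1 and Nanog, were higher in all 6 epiblast than in all 6 ExE libraries, and none was higher in ExE. Of 8 ExE markers 3 were higher in ExE, Cdx2, Tfap2c and Bmp4, and 1, Esrrb, was higher in epiblast, whereas the defining marker Elf5 was near 0 in both tissues. The summed RPKM of the ExE markers was 115.5 to 191 in ExE and 91.4 to 134 in epiblast, so that the tissues overlapped. Of 8 visceral endoderm markers 4 were higher in ExE and 1, Sox17, in epiblast, with a summed RPKM of 50.6 to 85.3 in ExE and 38.8 to 64.2 in epiblast, and their part in the results was not tested. The sum over 5 decidua markers was 9.42 to 15.8 in ExE and 22.5 to 32.6 in epiblast, and its part was not tested either.

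H3K27me3 covered far more of the region in ExE than in epiblast. ExE peaks had a median length of 30 kb, against 11 kb over all autosomal ExE peaks, and the longest, over Shank2, measured 486 kb. They spanned 8.63 Mb, or 65.7% of the region. Epiblast peaks had a median length of 8.5 kb, against 7.5 kb over all autosomal epiblast peaks, a longest of 56 kb and spanned 1.59 Mb, or 12.1% of the region. Over all autosomes ExE peaks also covered more, with 502.7 Mb against 134.6 Mb in epiblast. Of the 155 ExE peaks 80 held a transcription start site, 36 lay in a gene body and 39 were intergenic. The authors called the peaks of each tissue on its own B6/CAST and CAST/B6 libraries and none in matDKO/CAST, so that these lengths describe the deposited sets.

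In wild-type ExE the paternal share of H3K27me3 reads over the region reached 58.2 and 57.6% for B6/CAST and 61.0 and 59.7% for CAST/B6. It was 44.9 and 47.6% in the matDKO/CAST libraries, below every wild-type library. Tests used the 148 of 155 peaks in which some wild-type library had 20 or more reads from either parent, called informative here. Among these, 105 (70.9%, against 16.4% of all informative autosomal peaks) had a mean share above 50% in both wild-type crosses, 84 in all 4 libraries, and 1 was below 50% in all 4. Shares of single peaks, pooled over the wild-type libraries, ran from 41.9 to 74.1% with a median of 57.9%, and their median in matDKO/CAST was 46.0%.

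Peaks were called imprinted when edgeR's adjusted p was below 0.05 in both crosses with the same parent higher, and jointly parental when the parent term of a fit over both crosses passed. By these values 42 of the 148 ExE peaks were imprinted, all of them paternal, where 1.35% of all informative autosomal peaks were called and 1.12% as paternal. The joint fit gave 95 paternal and 0 maternal peaks, against 7.27% of autosomal peaks called in either direction and 4.75% as paternal. A strain effect was called in 1 peak, where 4.32% of autosomal peaks had one. Since the region was chosen on this contrast, these counts only say which peaks carry the bias. Imprinted counts with a library left out came from a fit that pools the spread over all crosses, so the model changed as well. DESeq2 called 16 peaks imprinted, and edgeR called 15 without B6/CAST replicate 1, 18 without B6/CAST replicate 2 and 21 without CAST/B6 replicate 1, while the joint count was 57 by DESeq2 and 62 without B6/CAST replicate 1.

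**Figure D1:**
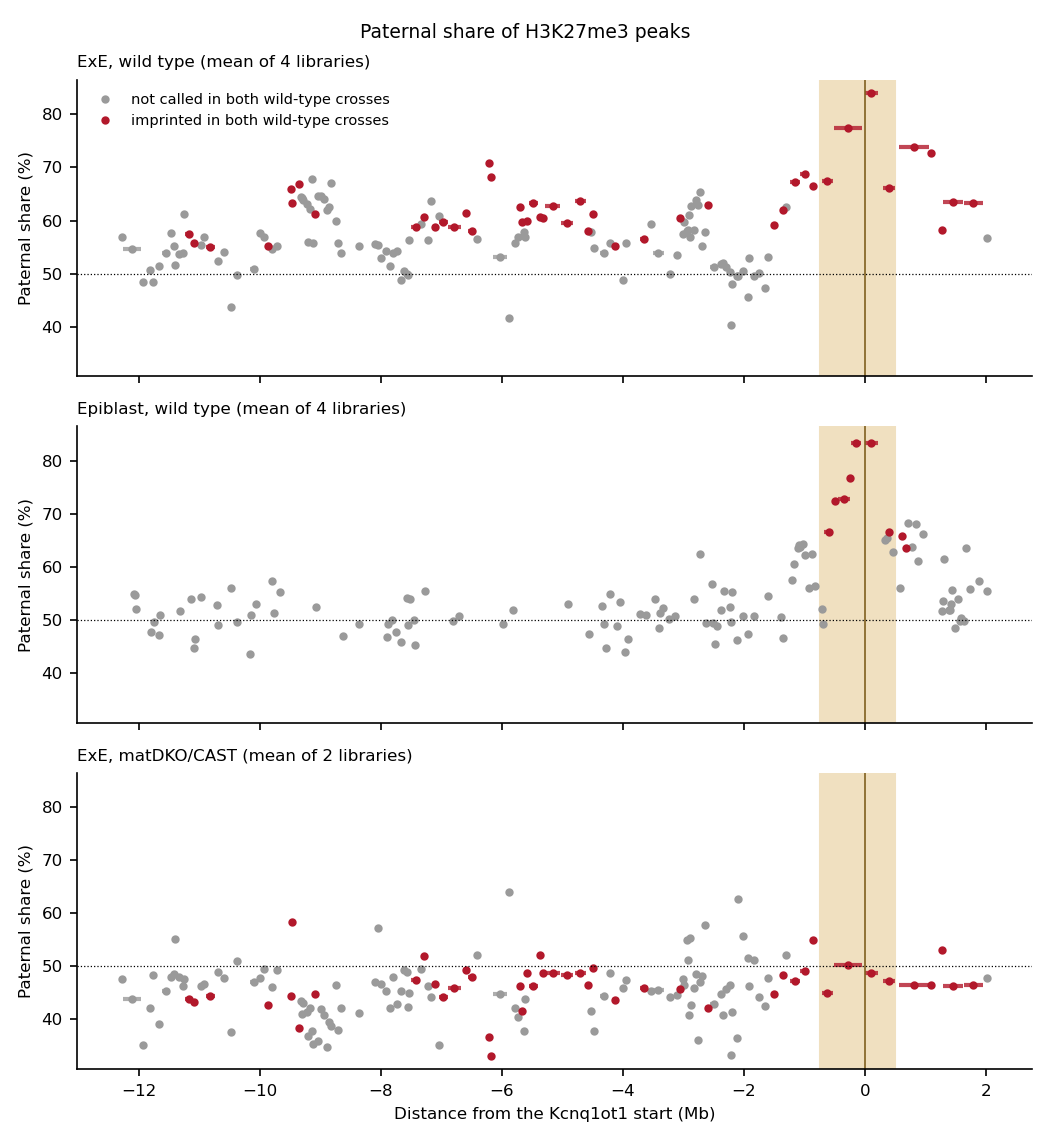
Paternal share of H3K27me3 reads (%) of each informative peak against its distance from the Kcnq1ot1 start (Mb, negative towards the centromere), as the mean over libraries in wild-type ExE, wild-type epiblast and matDKO/CAST ExE. Horizontal bars give the peak's length, red marks peaks called imprinted in both wild-type crosses of that tissue, and the shaded band is the left-out stretch from -0.75 to 0.5 Mb. In wild-type ExE the long Shank2 peak beside the band averages 72.9% in B6/CAST and 74.7% in CAST/B6, and in matDKO/CAST ExE 46.5%.

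The bias did not fall steadily with distance. In the telomeric interval next to the left-out stretch, 0.5 to 1.2 Mb from the Kcnq1ot1 start, both informative peaks were imprinted. Their paternal shares were 72.8 and 72.7% for B6/CAST and 74.9 and 74.3% for CAST/B6, the highest shares of any interval. From 1.2 to 2.1 Mb the shares were 63.3, 62.1, 63.7 and 62.2%, and 3 of 4 informative peaks were imprinted. On the centromeric side, the interval at 0.75 to 2.3 Mb gave 62.2, 61.5, 64.1 and 61.8% with 5 of 18 peaks imprinted.

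Farther towards the centromere the shares stayed above 50% in every wild-type library. They were 54.3, 53.7, 55.3 and 55.9% at 2.3 to 4.3 Mb, where 4 of 28 informative peaks were imprinted. At 4.3 to 8.3 Mb they were 56.5, 55.5, 60.6 and 59.0%, and 20 of 46 peaks were imprinted. At 8.3 to 12.3 Mb they were 53.7, 53.6, 57.0 and 55.4%, with 8 of 50 imprinted. The interval at 4.3 to 8.3 Mb thus carried more of the called peaks than either nearer one on this side. Across the 142 informative peaks on the centromeric side Spearman's rho between share and distance was -0.0169, and it was -0.83 over the 6 peaks on the telomeric side. Peaks share libraries and neighbouring peaks share domains, so these correlations are descriptive.

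At the edges of the region, the last peak before it had a wild-type share of 52.4% and the first peak at the start 56.5%. The last peak before the left-out stretch had 66.6%, the first and last peaks inside it 67.2 and 66.2%, and the first peak after it 62.7% over only 59 reads. The last peak before the telomeric end had 56.1%, and no ExE H3K27me3 peak lies beyond it. In bins of 1 Mb, with each library scaled to equal parents over the other autosomal peaks, all 13 bins of the region were above 50% in all 4 wild-type ExE libraries. This held for 126 of 1764 other autosomal bins (7.14%) and for 20 of 94 bins of chromosome 7 before the region (21.3%).

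**Figure D2:**
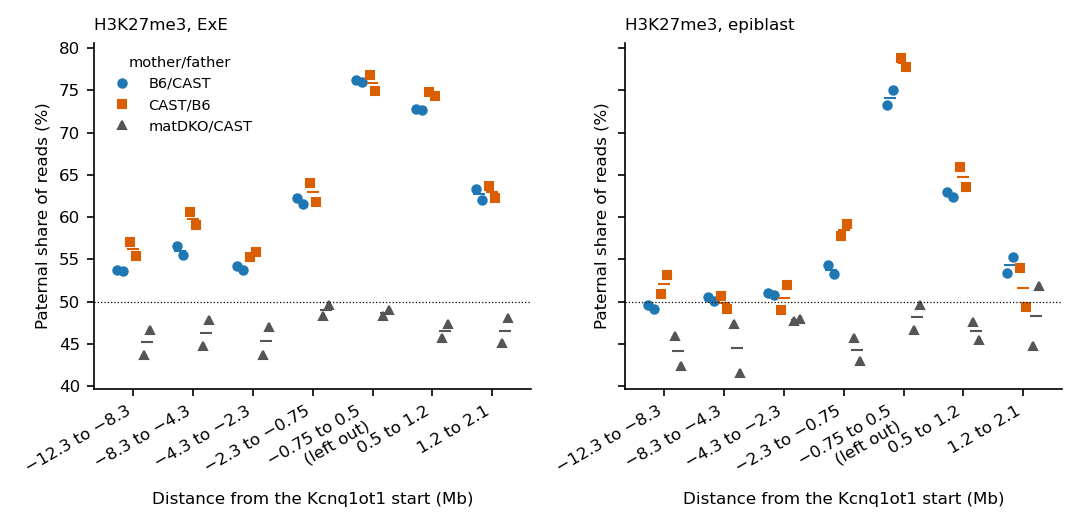
Paternal share of H3K27me3 reads (%) in each library by interval of the region, in ExE and epiblast, with intervals given as distance from the Kcnq1ot1 start (Mb). Points are the 2 libraries of each cross. In ExE the wild-type points lie above 50% in every interval and reach 74.9% from 0.5 to 1.2 Mb, while the matDKO/CAST points lie between 43.7 and 49.6%.

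The longest domain, and the one with the highest share pooled over both wild-type crosses, lay over Shank2, which encodes a scaffold protein of excitatory synapses. The peak at chr7:143864000-144350000, 0.81 Mb from the Kcnq1ot1 start and holding the starts of Gm498 and Shank2, had paternal shares of 73.0 and 72.8% in B6/CAST and of 75.1 and 74.3% in CAST/B6. In matDKO/CAST they were 45.7 and 47.4%, with no overlap between the groups. The next peak, at chr7:144353000-144431500 in the Shank2 body, had 71.2, 71.7, 73.2 and 75.1% in wild type and 45.1 and 48.0% in matDKO/CAST. Both peaks were paternal by nearly the same margin in the reciprocal crosses.

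The domain then reached the Fgf and cyclin D1 cluster. Ano1 encodes a calcium-activated chloride channel and is imprinted in placenta, and Fgf3, Fgf4 and Fgf15 encode fibroblast growth factors. Their shared peak at chr7:144583000-144914000 had paternal shares of 63.8, 62.2, 65.4 and 62.8% in wild type and 45.2 and 47.4% in matDKO/CAST. Ccnd1 encodes cyclin D1, which drives cells into S phase. Its peak at chr7:144931500-145246000, 1.79 Mb from the Kcnq1ot1 start and the farthest imprinted peak on this side, had 63.2, 63.4, 63.1 and 63.4% in wild type and 43.9 and 48.9% in matDKO/CAST. The 4 wild-type libraries were thus nearly equal at Ccnd1. A short peak over Faddos at 144554500, between the Shank2 and Ano1 domains, had 61.6, 53.0, 58.2 and 60.2%.

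On the centromeric side the bias was strong up to the left-out stretch. The nearest peak, at chr7:142388500-142487000 over Lsp1, Syt8 and Tnni2, which encode a leukocyte F-actin-binding protein, a synaptotagmin and a fast-muscle troponin, had 68.5, 67.1, 66.4 and 64.4% in wild type. It had 54.4 and 55.5% in matDKO/CAST. The neighbouring peak from 142220500 over Gm2431 and Ifitm10 had 66.5, 66.4, 72.9 and 69.3% in wild type and 49.6 and 48.8% in matDKO/CAST. The peak at chr7:142061500-142215000 over Dusp8, a phosphatase of MAP kinases, had 69.0, 65.8, 68.0 and 65.9%, against 45.2 and 49.1%. Brsk2, a kinase of neuronal polarity, shares a peak with Tollip that had 64.8, 66.8, 59.8 and 56.6%, against 48.9 and 47.8%. The gel-forming mucin genes Muc2, Muc5ac and Muc5b, in a peak from 141744500, followed with 60.7, 59.6, 59.1 and 57.1%, against 44.9 and 44.7%. All wild-type values of these 5 peaks lie above all matDKO/CAST values.

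Between the mucin genes and the Ifitm genes no peak was called in wild type. From B4galnt4 and Pkp3 through Hras, Eps8l2, Taldo1 and Cd151 to the start of Muc2, a stretch that was picked out after its values were seen, 12 peaks were all informative and 0 of them were imprinted or jointly parental. Their wild-type shares ran from 42.9 to 54.5% with a median of 49.2%. These peaks were short and covered 168 kb in all. Hras encodes a small GTPase of growth factor signalling, and the peak next to it had 49.6, 51.1, 48.8 and 48.5%. Of this stretch 1 peak, over Cdhr5, Drd4, Irf7 and Sct, was biased in matDKO/CAST, with shares of 54.4 and 57.1% there and 53.4, 51.5, 48.6 and 48.8% in wild type.

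Paternal domains returned beyond the Ifitm genes. The peak of Cfap46 and Nkx6-2 at chr7:139577000-139716500 had 58.1, 56.4, 54.8 and 56.7% in wild type and 43.4 and 48.3% in matDKO/CAST. Nkx6-2 is a homeodomain factor of the neural tube, and Cfap46 encodes a ciliary protein. Tcerg1l, a gene related to a transcription elongation regulator, lay in 2 adjacent domains. The peak with its start, chr7:138267000-138467500, had 59.0, 54.4, 62.7 and 61.9% in wild type and 48.4 and 48.3% in matDKO/CAST. The peak from 138004500 over its body had 58.8, 58.6, 67.2 and 66.1%, against 47.3 and 50.2%. The neighbouring non-coding gene 4930543N07Rik had 64.5, 59.8, 66.7 and 63.7%, against 45.3 and 52.2%.

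The farthest imprinted peak of the region on the centromeric side was Cpxm2, which encodes a carboxypeptidase-like protein. This peak lay at chr7:132061000-132177500, 11.2 Mb from the Kcnq1ot1 start. It had 57.2, 58.8, 59.1 and 54.8% in wild type and 41.5 and 46.3% in matDKO/CAST. The other imprinted peaks with the most reads were Gm35147 with Gm44893, 6330420H09Rik, C030029H02Rik, Gm45682, Lrrc27 with Stk32c, and intergenic peaks from 136398000 and 136735000.

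Mgmt, which encodes a DNA repair enzyme that removes alkyl groups from guanine, had 2 imprinted peaks with a larger margin in CAST/B6. The second of these, in the gene body, chr7:137099000-137135500, had 57.3 and 60.1% in B6/CAST and 75.7 and 79.4% in CAST/B6. In matDKO/CAST it had 29.9 and 36.5%. The B6 copy therefore had the higher share in CAST/B6 and in matDKO/CAST, where B6/129 is maternal, and the paternal CAST copy was higher in B6/CAST by a smaller margin.

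Long peaks carried more of the calls. Of 27 informative ExE peaks of 100 kb or more 19 were imprinted, with a pooled share of 59.6 to 62.9% per library. Of 26 peaks from 50 to 100 kb 9 were imprinted at 55.1 to 57.5%, of 41 from 20 to 50 kb 9 at 53.8 to 58.5%, and of 54 below 20 kb 5 at 54.7 to 58.6%. Shares of the 3 shorter classes overlapped between libraries. Long peaks also hold more reads, with a median of 8585 per peak against 334 in the shortest class. The part of read number in these counts was not tested.

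By gene group, 67 genes of 8 lists have their start in the region, and 33 of these starts lay in an informative ExE H3K27me3 peak. Of the 33 starts 15 were in imprinted peaks and 23 in jointly parental ones, where 28.4 and 64.2% of the informative peaks of the region and 1.35 and 7.27% of autosomal ones were called. Their median wild-type share was 54.8%, against 57.9% over the peaks of the region. Starts that share a peak, such as Fgf3, Fgf4 and Fgf15, were each counted, so counts of starts and of peaks are unlike measures. In the Fgf and cyclin D1 cluster, Fgf3, Fgf4, Fgf15, Ccnd1 and Shank2 were in peaks and all 5 were imprinted, whereas Lto1, Tpcn2, Ppfia1, Cttn and Fadd had no ExE H3K27me3 peak at their start. Of the widely expressed genes only Dusp8 of 20 had such a peak. The starts of Mki67, a proliferation marker, of the proteasome gene Psmd13 and of the RNA polymerase gene Polr2l, for example, held at most 0.276 RPKM of H3K27me3 in ExE.

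Of 8 starts of developmental transcription factors in a peak 1, Nkx6-2, was imprinted, 4 were jointly parental and the median wild-type share was 52.6%. Hmx2 and Hmx3, homeodomain factors of the inner ear, shared a peak with 46.6% in B6/CAST and 50.1% in CAST/B6, and Ebf3, a factor of neuronal differentiation, had 53.0 and 53.1%. RPKM within 1 kb of the Hmx2 start was 5.95 to 8.27 in ExE and 8.63 to 13.6 in epiblast. The 9 neuronal and synaptic genes in peaks had 3 imprinted, Brsk2, Tcerg1l and Syt8, 8 jointly parental and a median of 54.1%. The 6 mucin and secreted protein genes had 4 imprinted and a median of 59.1%. Ano1, one of 2 genes here that the study lists as imprinted, was in an imprinted peak and Dhcr7 in none, and the meiosis gene Syce1 was at 52.3% without a call. Ifitm2 and Ifitm5, interferon-induced membrane proteins, shared 1 peak without a call at 51.8%.

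The parental bias in matDKO/CAST was tested as a contrast of its own, in a fit of the matDKO/CAST libraries alone. Only with a library left out did the fit pool the spread over all crosses. By edgeR, 2 of 148 ExE H3K27me3 peaks were paternal and 1 was maternal at an adjusted p below 0.05, which is 2.03% against 2.1% of all informative autosomal peaks. The paternal ones were the Lsp1, Syt8 and Tnni2 peak, with a log2 ratio of 0.56 and an adjusted p of 0.00799, and the Cdhr5, Drd4, Irf7 and Sct peak, with 0.60 and 0.0203. The maternal one was Mgmt, with -0.72 and 0.0279. Of the 42 peaks imprinted in wild type only Lsp1 and Mgmt were among these calls. The mean matDKO/CAST shares of the 42 ran from 33.2 to 58.4% with a median of 46.4%, and 5 were above 50%, against wild-type medians of 58.8% in B6/CAST and 62.3% in CAST/B6. DESeq2 called 0 of these 3 peaks, with the library as a block edgeR called 7, and without matDKO/CAST replicate 2 it called 0.

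The difference in bias between matDKO/CAST and B6/CAST was fitted as an interaction, which uses the wild-type libraries and is given as a description. It passed in 15 peaks, all less paternal in matDKO/CAST, where 0.742% of informative autosomal peaks passed in either direction and 0.705% in this one. These were Cpxm2, an intergenic peak from 133473000, Mgmt, Gm45683, 4930543N07Rik, Mir6401 and, from the mucin genes onwards, Muc2, Brsk2, Dusp8, Ifitm10, Lsp1, both Shank2 peaks, Ano1 and Ccnd1. The log2 difference was -1.45 at the long Shank2 peak, -1.05 at Dusp8, -0.82 at Ccnd1, -0.80 at Ano1 and -0.64 at Cpxm2. With each library scaled to equal parents over the other autosomal peaks, the mean share over the region was 59.2% in wild type and 50.8% in matDKO/CAST. When a library was left out, the interaction fit also took in CAST/B6, so the model changed as well. The interaction count was 36 with the library as a block, 5 by DESeq2 and 7 without either B6/CAST library.

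Reads per parent show on which copy the signal differed. In the telomeric interval at 0.5 to 1.2 Mb, the wild-type ExE libraries held 1163, 1065, 1363 and 1270 paternal reads in RPM, that is scaled to the allelic reads of the library, and 434, 399, 457 and 439 maternal ones. The matDKO/CAST libraries held 1065 and 1018 paternal and 1269 and 1131 maternal reads on the same scale. Both maternal values of matDKO/CAST lay far above all wild-type ones, while its paternal values lay at or below the lowest wild-type value. From 1.2 to 2.1 Mb the paternal values were 876 to 1074 in wild type and 640 and 652 in matDKO/CAST, and the maternal ones 513 to 612 and 780 and 705. In the most distant interval, 8.3 to 12.3 Mb away, maternal values were 1935 to 2008 in wild type and 2870 and 2903 in matDKO/CAST, and paternal ones 2238 to 2590 and 2227 and 2537. Maternal reads in matDKO/CAST were thus higher in all 3 intervals, and paternal reads at or below the lowest wild-type value in the telomeric ones. Over the other autosomal peaks its paternal reads were also lower, with a mean of 442682 RPM against 483368 in B6/CAST and 494141 in CAST/B6. The maternal means there were 530541, 495606 and 483023 RPM in the same order. The second alignment added maternal reads in matDKO/CAST, and its part in these values was not tested.

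**Figure D3:**
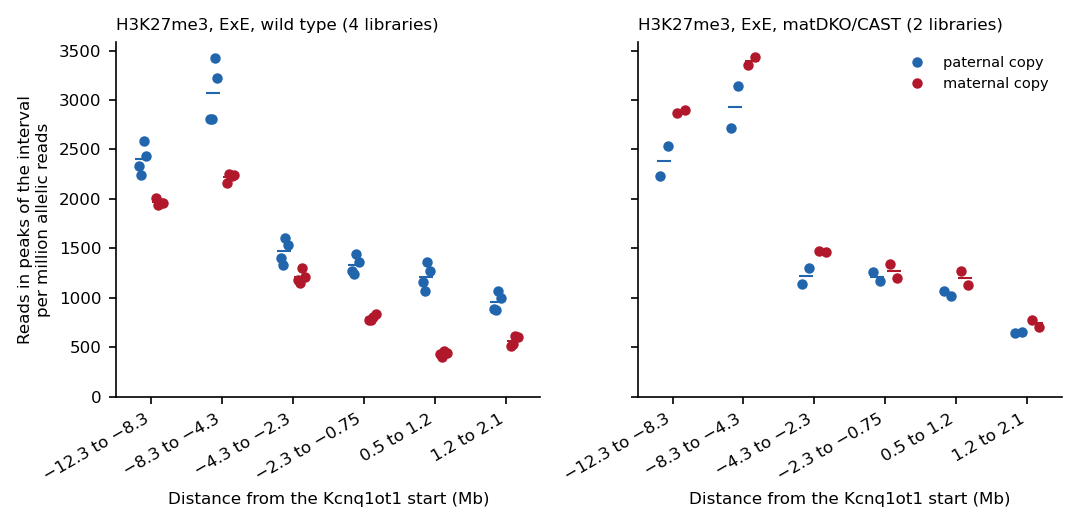
ExE H3K27me3 reads (RPM, scaled to the allelic reads of the library) on the paternal and the maternal copy in each library by interval of the region, with intervals as distance from the Kcnq1ot1 start (Mb). Points are libraries of the 3 crosses. From 0.5 to 1.2 Mb the maternal values are 399 to 457 in wild type and 1131 and 1269 in matDKO/CAST.

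In epiblast the paternal share of H3K27me3 was much smaller and was tested, since the region was not chosen on these libraries. Over the region it was 52.7 and 52.2% in B6/CAST, 53.3 and 53.7% in CAST/B6 and 46.6 and 44.7% in matDKO/CAST. Of 111 informative peaks 2 (1.8%) were imprinted, both paternal, against 0.325% of autosomal peaks, or 0.28% called paternal. In the joint test 11 (9.91%) passed, all paternal, against 0.751%, or 0.628% called paternal. All 11 lay next to the left-out stretch, with 5 of 20 informative peaks at 0.75 to 2.3 Mb on the centromeric side and 6 of 8 at 0.5 to 1.2 Mb on the telomeric side. Farther towards the centromere, at 2.3 to 4.3, 4.3 to 8.3 and 8.3 to 12.3 Mb, 0 of 23, 0 of 19 and 0 of 25 informative peaks were jointly parental, and at 1.2 to 2.1 Mb on the telomeric side 0 of 16. For the imprinted count, leaving out a library also meant a change to the fit pooled over crosses. The joint count was 5 by DESeq2 and 3 without either CAST/B6 library. The imprinted count was 0 by DESeq2, 6 with the library as a block, 0 and 1 without CAST/B6 replicate 1 and 2, and 4 without either matDKO/CAST library.

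Both imprinted epiblast peaks lay next to the first start of Shank2. The peak of the microRNA gene Mir6404, chr7:143891000-143937500, had 63.6, 66.9, 69.96 and 62.8% in wild type and 52.4 and 47.6% in matDKO/CAST. Its joint log2 ratio was 1.00 with an adjusted p of 8.8e-06. The peak at chr7:143940500-143996500 had 64.7, 61.9, 62.9 and 64.5%, against 44.7 and 46.3%. Further jointly parental peaks were Mir3105 and 3 in the Shank2 body on the telomeric side. On the centromeric side they were Dusp8, with 56.5, 51.3, 59.2 and 63.3% and an adjusted p of 0.038, Gm2431, Syt8 and 2 peaks at the keratin-associated protein genes Krtap5-1, Krtap5-3 and Krtap5-4. In the Fgf and cyclin D1 cluster Fgf3, Fgf15 and Ccnd1 had epiblast peaks with shares of 53.8, 50.3 and 51.97% and no call.

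The epiblast shares of matDKO/CAST lay below those of all 4 wild-type libraries. The mean difference over the region was -7.30 points, and at 0.5 to 1.2 Mb on the telomeric side, where wild type had 62.9, 62.4, 66.0 and 63.6% and matDKO/CAST 47.6 and 45.4%, it was -17.2 points. In each case the exact permutation test gave p = 0.0667 (two-sided, n = 2 and 4), the smallest p that 2 against 4 libraries allow, and 0.215 after adjustment over all 42 share tests. From 1.2 to 2.1 Mb the wild-type shares of 53.4, 55.3, 53.9 and 49.3% and the matDKO/CAST shares of 44.8 and 51.9% overlapped (exact permutation p = 0.2, adjusted 0.382). On the scale with equal parents over the other autosomal peaks the difference over the region was -3.28 points. Spearman's rho between share and distance was -0.29 over 87 centromeric and -0.53 over 24 telomeric epiblast peaks. Per peak, edgeR called 0 interactions in epiblast, where 0.179% of autosomal peaks passed, 8 peaks had an unadjusted p below 0.05, DESeq2 also called 0 and edgeR with the library as a block called 1, less paternal in matDKO/CAST.

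In matDKO/CAST epiblast 2 of 111 peaks (1.8%) were called, against 1.97% of autosomal peaks. Both were paternal, in the Jakmip3 body with 66.7 and 67.9% and at the olfactory receptor genes Olfr45 and Olfr539 with 65.2 and 63.9%. In wild type the CAST copy was higher at both, with paternal shares at Jakmip3 of 68.4 and 81.0% for B6/CAST and 21.5 and 26.1% for CAST/B6. The CAST copy is also the paternal one in matDKO/CAST. Leaving out a library again meant a change to the fit pooled over crosses. The count was 0 by DESeq2 and without either matDKO/CAST library, and 5 with the library as a block and without either B6/CAST library.

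**Figure D4:**
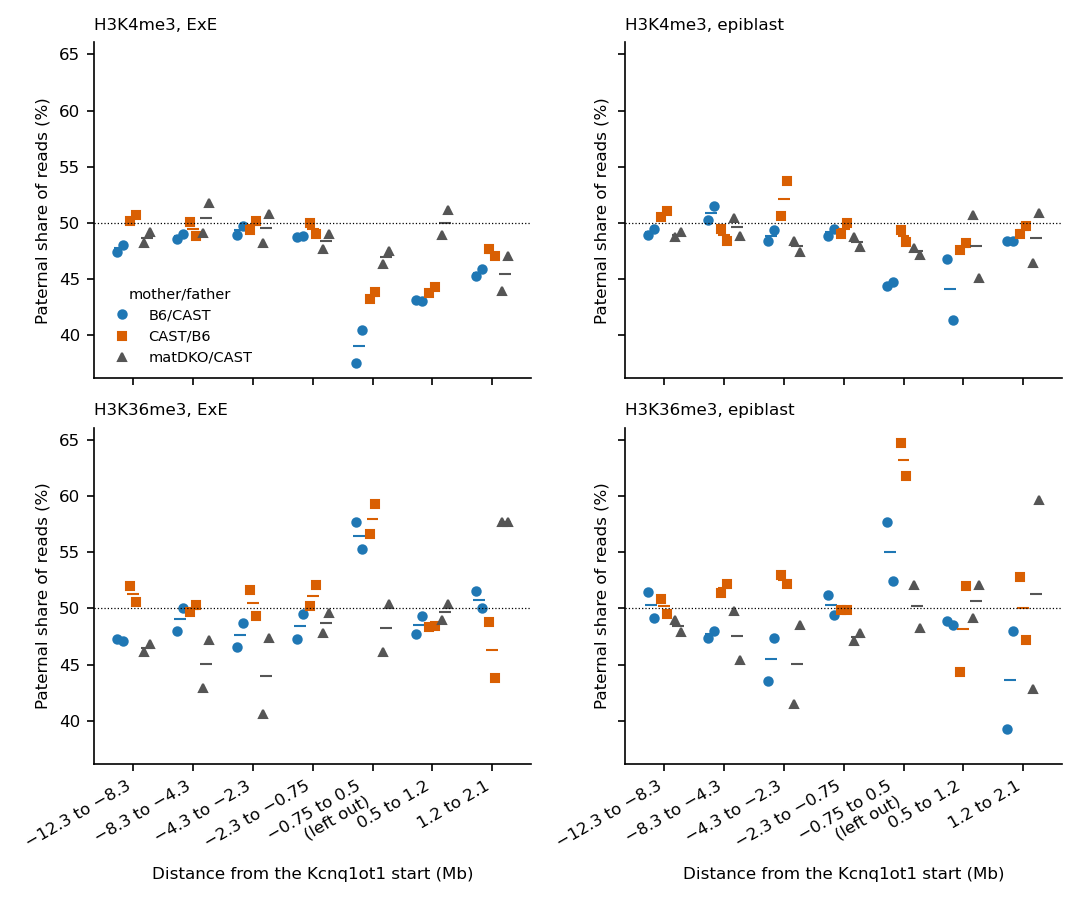
Paternal share of H3K4me3 and H3K36me3 reads (%) in each library by interval of the region, in ExE and epiblast, with intervals as distance from the Kcnq1ot1 start (Mb). Points are libraries of the 3 crosses. From 0.5 to 1.2 Mb the 4 wild-type ExE libraries have H3K4me3 shares of 43.0 to 44.3%, below the matDKO/CAST values of 48.9 and 51.2%.

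H3K4me3, the promoter mark, was close to balanced between the parents over the region. Of 146 informative ExE peaks 2 (1.37%) were imprinted, both maternal, where 0.319% of autosomal peaks were called and 0.129% as maternal. The same 2 peaks passed the joint test, where 0.711% passed and 0.28% as maternal. The peak at chr7:143977000-143980500, an intergenic site 0.68 Mb from the Kcnq1ot1 start and upstream of Shank2, had paternal shares of 32.8, 34.9, 31.5 and 27.3% in wild type and 51.4 and 50.9% in matDKO/CAST. Its joint log2 ratio was -1.13 with an edgeR adjusted p of 5e-07, from 615 reads. It lies between the starts of the Shank2 domain and of Shank2 itself, inside the long paternal H3K27me3 peak of ExE and inside an imprinted H3K27me3 peak of epiblast. The centre of this peak, on GRCm38.p6 and the plus strand, holds 10 CG, in capitals.
H3K4me3 peak centre, chr7:143978601-143978900, plus strand: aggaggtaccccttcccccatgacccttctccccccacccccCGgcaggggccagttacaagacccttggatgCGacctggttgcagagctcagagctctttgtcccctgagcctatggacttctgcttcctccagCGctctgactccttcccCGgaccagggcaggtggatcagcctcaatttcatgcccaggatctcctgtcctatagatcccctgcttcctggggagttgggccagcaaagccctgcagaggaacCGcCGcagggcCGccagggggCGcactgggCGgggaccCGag

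The other maternal H3K4me3 peak lay in the body of the non-coding gene Gm34964, chr7:144789000-144791000, within the Ano1 and Fgf domain of H3K27me3. It had 21.2, 28.0, 7.1 and 10.0% in wild type from 83 reads in all, and matDKO/CAST had too few reads for a comparison. As above, imprinted counts without a library came from the fit pooled over crosses. The imprinted count fell to 0 by DESeq2 and without B6/CAST replicate 1, B6/CAST replicate 2 or CAST/B6 replicate 2, and to 1 without CAST/B6 replicate 1. The joint count was 1 by DESeq2, without B6/CAST replicate 1 and without CAST/B6 replicate 1, and 5 with the library as a block.

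Of all 146 informative ExE peaks 50 were below 50% in both wild-type crosses and 8 above, that is 34.2 and 5.48%, where 15.9 and 14.3% of all informative autosomal peaks were. Of the 138 in epiblast 33 (23.9%, against 18.1%) were below and 21 (15.2%, against 14.4%) above. In epiblast 0 peaks were imprinted (0.108% of autosomal peaks were) and 0 passed the joint edgeR test (0.197%), with 1 at an unadjusted p below 0.05, and DESeq2 also called 0. In each tissue 52 listed gene starts lay in an informative H3K4me3 peak, and 0 of them were called. At the Ccnd1 start the ExE shares averaged 43.0% in B6/CAST and 49.9% in CAST/B6, and at the Fgf3 start 37.7 and 48.3%.

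Over the whole telomeric flank the ExE H3K4me3 share was 44.6 and 45.0% in B6/CAST and 46.5 and 46.3% in CAST/B6. In epiblast it was 48.0, 46.9, 48.7 and 49.4%. The 4 ExE libraries thus lay below the 4 epiblast libraries, by 2.66 points on average. The exact permutation test gave p = 0.0286, the smallest that 4 against 4 libraries allow, and 0.3 after adjustment over the 18 tests of the region and its flanks for H3K4me3 and H3K36me3. Over the region the tissues did not differ beyond the spread, with 49.0% in ExE and 49.7% in epiblast (exact permutation p = 0.257, adjusted 0.436, n = 4 and 4). At 0.5 to 1.2 Mb on the telomeric side, ExE H3K4me3 shares of 43.0 to 44.3% in wild type and 48.9 and 51.2% in matDKO/CAST did not overlap (exact permutation p = 0.0667, the smallest possible for 2 against 4, and 0.215 adjusted over all 42 share tests). The groups overlapped at 1.2 to 2.1 Mb, with 45.3 to 47.7% in wild type and 43.9 and 47.1% in matDKO/CAST (exact permutation p = 0.467, adjusted 0.7), and over the whole telomeric flank, with 46.2 and 49.0% in matDKO/CAST (exact permutation p = 0.267, adjusted 0.436). Scaled to equal parents over the other autosomal peaks, the flank shares did not overlap, with 49.1 and 50.2% in matDKO/CAST and 45.5 to 45.8% in wild type. At 1.2 to 2.1 Mb they still overlapped on that scale, with 46.8 and 48.2% against 46.2 to 46.9%.

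A strain difference in H3K4me3 stood out at Gm36431. This peak from 135734000 had paternal shares of 72.6 and 70.7% in B6/CAST, 34.5 and 29.1% in CAST/B6 and 76.5 and 81.5% in matDKO/CAST, with the CAST copy higher in each, and was the 1 strain call in ExE, where 3.96% of autosomal peaks had one. It was the 1 matDKO/CAST call of H3K4me3 in ExE, 0.685% of members against 2.76% of autosomal peaks. Counts with a library left out came from the fit pooled over crosses, so the model changed as well as the libraries. This count of 1 was 5 with the library as a block and 2 without either CAST/B6 library or matDKO/CAST replicate 3. In epiblast 5 of 138 peaks (3.62%, against 7.17%) were called in matDKO/CAST, Pstk, Ptdss2 and Irf7 with the maternal and Gm36431 and Lrrc27 with the CAST paternal copy higher. The maternal share of the first 3 was also above 50% in B6/CAST and below it in CAST/B6. The count of 5 was 0 without matDKO/CAST replicate 1, 1 without matDKO/CAST replicate 2 or either CAST/B6 library, 2 without either B6/CAST library, 1 by DESeq2 and 9 with the library as a block. By edgeR 0 interactions passed in ExE (0.892% of autosomal peaks did) and 0 in epiblast (0.674%), with 2 and 1 peaks at an unadjusted p below 0.05. DESeq2 called 0 in both, and edgeR with the library as a block called 2 in ExE, more paternal in matDKO/CAST, and 0 in epiblast.

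H3K36me3, the mark of transcribed gene bodies, gave no call. Among 46 informative peaks in ExE and 61 in epiblast edgeR called 0 as imprinted, jointly parental, biased in matDKO/CAST or different between crosses, where 0.251 and 0.0632% of autosomal peaks were imprinted, 0.589 and 0.153% jointly parental, 0.677 and 0.451% biased in matDKO/CAST and 0.363 and 0.163% different between crosses. At an unadjusted p below 0.05 the joint test gave 1 peak in ExE and 4 in epiblast, all maternal, the matDKO/CAST test 4 and 4, the interaction 6 and 8, and both crosses 0 and 0, and DESeq2 called 0. Shares over the region were 47.4, 48.5, 50.8 and 50.6% in wild-type ExE and 49.7, 48.8, 50.5 and 50.4% in epiblast. The tissues overlapped (exact permutation p = 0.629, adjusted 0.789, n = 4 and 4). Shares in matDKO/CAST were 45.8 and 48.1% in ExE, overlapping wild type, and 47.8 and 48.1% in epiblast, below all wild-type libraries (exact permutation p = 0.0667, the smallest possible for 2 against 4, adjusted 0.3). On the telomeric flank in ExE they were 49.7 and 51.0%, above the wild-type range of 47.6 to 49.4% (exact permutation p = 0.0667, adjusted 0.3). Scaled to equal parents over the other autosomal peaks, the epiblast difference over the region turned, with 49.8 and 51.6% in matDKO/CAST and 49.2 to 50.8% in wild type, while the difference on the telomeric flank in ExE kept its direction, with 52.8 and 53.7% against 46.5 to 50.4%.

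Total H3K27me3, read from all aligned reads regardless of parent, was higher in ExE over much of the region. Of 1162 tiles of 10 kb with a mean of at least 0.2 RPKM, limma called 621 (53.4%) higher in ExE and 39 (3.36%) lower at an adjusted p below 0.05, where 16.1 and 6.6% of all autosomal tiles were called. The region was chosen on the same wild-type ExE libraries, so these counts and the ratios that follow are descriptive. The median log2 difference was 0.26 in the region and 0.03 over all tiles, on the scale of log2 of RPKM plus 0.5. The share of tiles higher in ExE was 86.7% at 0.5 to 1.2 Mb and 85.3% at 1.2 to 2.1 Mb on the telomeric side. It was 57.8, 32.3, 57.1 and 46.5% in the centromeric intervals from nearest to farthest. The centromeric interval at 2.3 to 4.3 Mb thus had the fewest. In pooled tissue, more of the mark in each cell and more cells that carry it cannot be told apart.

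Averaged over the region, H3K27me3 was 0.789 ± 0.105 RPKM in ExE and 0.596 ± 0.0667 RPKM in epiblast (SD, n = 4 and 4), a ratio of 1.32 against 1.06 over the other autosomal tiles. The ranges of 0.665 to 0.912 and 0.551 to 0.695 overlapped through 1 epiblast library, CAST/B6 replicate 1. Without that library, a comparison added after seeing the values, the ratio was 1.4 and the ranges did not overlap. At 0.5 to 1.2 Mb on the telomeric side the ratio was 1.71 and at 1.2 to 2.1 Mb 1.56, with no overlap in either. At 2.3 to 4.3 Mb on the centromeric side it was 1.08.

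**Figure D5:**
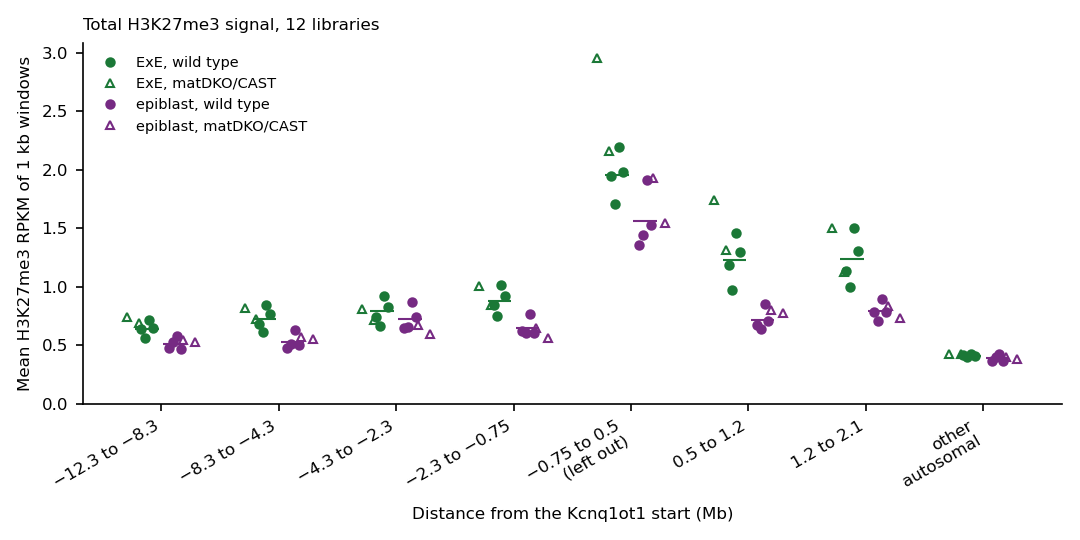
Mean total H3K27me3 (RPKM) of each library by interval of the region, with intervals as distance from the Kcnq1ot1 start (Mb) and the other autosomal tiles beside them. Filled points are wild-type libraries and open triangles matDKO/CAST libraries, for ExE and epiblast. From 0.5 to 1.2 Mb wild-type ExE lies at 0.968 to 1.46 and wild-type epiblast at 0.642 to 0.851.

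The 5 tiles with the largest gain of H3K27me3 in ExE lay in the cyclin D1 and Fgf cluster (3 tiles) and at Krtap5-1 and the adjacent Gm45889 on the centromeric side (2 tiles). The tile next to Ccnd1 from 144940001 held 2.09 to 2.50 RPKM in wild-type ExE and 0.462 to 1.01 in epiblast, with a log2 difference of 1.31 ± 0.13 (SE). The log2 difference was 1.01 in the tile over Krtap5-1 from 142290001, 0.97 over Ccnd1 and Lto1, 0.92 over Fgf15 and 0.90 over Gm45889. H3K27me3 was lower in ExE at Faddos (-1.27), at Msx3, a homeodomain factor of the dorsal neural tube (-1.12 and -1.09), at Lrrc27 and Pwwp2b (-1.07) and at Ppfia1 (-0.99). At the starts themselves, Ccnd1 held 3.65 to 4.95 RPKM in ExE and 1.03 to 1.75 in epiblast, while Fgf3 held 4.42 to 5.33 and 6.02 to 6.56. These neighbouring genes thus differed in opposite directions at their starts.

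Of the 36 H3K4me3 tiles at 1.2 to 2.1 Mb on the telomeric side 9 were lower and 3 higher in ExE, and of the 19 at 0.5 to 1.2 Mb 3 were lower and 4 higher. The largest losses in the region were in tiles over Fgf4 (-1.48), Fgf15 (-1.41), Ifitm2 with Ifitm5 (-1.37) and Shank2 (-1.31) and in the tile next to Ccnd1 (-1.31), and the Fgf4 tile held 1.14 to 2.55 RPKM in ExE and 5.29 to 6.23 in epiblast. Fgf4 is a growth factor made by the epiblast on which trophoblast stem cells depend. Gains were largest at Pwwp2b (1.33), Ctbp2 (0.98), Kndc1 (0.98) and Eps8l2 (0.89). In all, 59 of 375 tiles (15.7%) were higher and 55 (14.7%) lower in ExE, against 18.2 and 10.7% of autosomal tiles. Both directions together, 71 were called without ExE B6/CAST replicate 1 and 75 without ExE CAST/B6 replicate 1. At 1.2 to 2.1 Mb on the telomeric side mean H3K4me3 was 0.611 to 0.668 RPKM in ExE and 0.843 to 0.932 in epiblast, a ratio of 0.705 (exact permutation p = 0.0286, adjusted 0.415).

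H3K36me3 was higher in ExE in 104 of 1273 tiles (8.17%, against 8.35% of autosomal tiles) and lower in 45 (3.53%, against 8.03%). Both directions together, the count fell to 63 without ExE B6/CAST replicate 1, to 82 or 90 without either ExE CAST/B6 library, to 86 without epiblast B6/CAST replicate 2 and to 82 or 83 without either epiblast CAST/B6 library. Of the 104 higher tiles 41 lay at 0.75 to 2.3 Mb on the centromeric side, which is 27.7% of its 148 tiles. Mean H3K36me3 there was 0.677 to 0.755 RPKM in ExE and 0.529 to 0.580 in epiblast, a ratio of 1.30 (exact permutation p = 0.0286, adjusted 0.415). Pwwp2b, a reader protein of H3K36 methylation, rose by 1.16, Eps8l2, a regulator of actin, by 1.07 and the helicase gene Dhx32 by 0.82 on the log2 scale. Fgf15 (-0.52) and Tcerg1l (-0.47) were lower. At Pwwp2b and Eps8l2 both H3K4me3 and H3K36me3 were therefore higher in ExE, and at Fgf15 both were lower.

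Total signal was compared by tile between matDKO/CAST and wild type. For H3K27me3, 19 of 1162 ExE tiles (1.64%, against 0.566% of autosomal tiles) were higher and 2 (0.172%, against 0.105%) lower, and in epiblast 13 were higher (1.12%, against 1.14%) and 13 lower (1.12%, against 0.691%). The mean over the region was 0.784 and 0.910 RPKM in matDKO/CAST ExE, 1.07 times wild type and within its range of 0.665 to 0.912. At 0.5 to 1.2 Mb on the telomeric side it was 1.31 and 1.74 RPKM, 1.25 times wild type, whose range was 0.968 to 1.46, and the median log2 difference over its 60 tiles was 0.23, the largest of the 6 intervals. The mean over the region was 0.597 RPKM in matDKO/CAST epiblast, 1.00 times wild type (exact permutation p = 1, n = 2 and 4). The 21 tiles called in ExE became 2 without ExE matDKO/CAST replicate 3, 5 without ExE B6/CAST or CAST/B6 replicate 2, and 45 without epiblast matDKO/CAST replicate 1, and the 26 in epiblast became 0 without epiblast matDKO/CAST replicate 2 and 82 without replicate 1.

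Of the 21 tiles called in ExE 1 lay at 0.5 to 1.2 Mb, among 60 of the 1162 tiles tested, and 20 more than 2.3 Mb away on the centromeric side. In ExE H3K27me3 was higher at Dock1 (0.63), in 2 tiles of Lhpp (0.63 and 0.57), at Mgmt (0.59) and at Shank2 (0.54), and lower at Utf1 with Kndc1 (-0.78) and Gm16201 (-0.59). In epiblast Utf1, a factor of undifferentiated cells, fell by 1.20, Hmx2 with Hmx3 had -0.99 and -0.90, and Msx3 -0.97 and -0.84, while Ebf3 (0.61 and 0.53), Mgmt (0.59 and 0.50) and Adam12 with Fank1 (0.56) were higher. For H3K4me3 in ExE 0 tiles were higher (against 0.167% of autosomal tiles) and 2 lower (0.533%, against 0.115%), both at Fgf3, with 1.19 and 1.55 RPKM in matDKO/CAST and 2.44 to 4.32 in wild type, a log2 difference of -0.999 ± 0.176 and a limma adjusted p of 1.66e-05. The count of 2 fell to 0 without ExE matDKO/CAST replicate 2 and with the replicate number as a block. In epiblast 0 H3K4me3 tiles were lower (against 0.0794%) and 2 were higher (0.533%, against 1.32%), at Ptpre (0.77) and at an intergenic site (0.57). These 2 became 0 without epiblast matDKO/CAST replicate 2 and in tiles of 50 kb, 5 without epiblast matDKO/CAST replicate 1, 4 without epiblast B6/CAST replicate 2, 7 without epiblast CAST/B6 replicate 3, and 1 without epiblast B6/CAST replicate 1, epiblast CAST/B6 replicate 2 or ExE CAST/B6 replicate 2. For H3K36me3 limma called 0 tiles in ExE, where 0.00314% of autosomal tiles were higher and 0.0175% lower, with 86 at an unadjusted p below 0.05 and 0 by edgeR on the reads recovered from the RPKM steps. In epiblast 2 tiles, at Muc5ac (0.60) and Dmbt1 (0.55), were higher (0.157%, against 0.0538%), and 1 at Gm45889 (-0.70) was lower (0.0786%, against 0.204%). These 3 became 89 without epiblast matDKO/CAST replicate 3, 17 with the replicate number as a block, 0 by edgeR on recovered reads, and 1 without epiblast matDKO/CAST replicate 2, epiblast B6/CAST replicate 1, either ExE B6/CAST or either epiblast CAST/B6 library.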

How the data were processed

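Ultra-low-input native ChIP-seq of H3K27me3, H3K4me3 and H3K36me3 gave 36 libraries, 2 per mark, tissue and cross, beside 15 inputs that were not used for tests. The submitters' processing notes name Trim Galore 0.4.4, Bowtie2 2.3.2 and GRCm38. The authors aligned reads to an N-masked genome, assigned reads over strain polymorphisms to a parent, called peaks with a hidden Markov model in B6/CAST and CAST/B6, not in matDKO/CAST, and merged the peaks of a mark within a tissue, so sites marked in matDKO/CAST alone are not covered. The 6 deposited allelic tables hold raw maternal and paternal read counts per peak and library. A deposited table holds RPKM in windows of 1 kb, whose values were whole multiples of a step per library (tolerance 0.02 reads), so reads could be recovered. For matDKO/CAST the authors left polymorphisms shared by 129 and CAST out of the first alignment. Reads still unassigned were aligned a second time to 129 and CAST, which adds maternal reads.

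Groups came from the sample labels. Allelic counts were tested with edgeR 4.0.16 (quasi-likelihood F test) in R 4.3.3 over all informative autosomal peaks, with Benjamini-Hochberg adjustment and a threshold of 0.05. Total signal was tested with limma 3.58.1 on log2 of RPKM plus 0.5 in tiles of 10 kb with a mean of at least 0.2 RPKM. Shares per library were compared with two-sided exact permutation tests in scipy 1.17.1, adjusted over 18 share tests of H3K4me3 and H3K36me3 over the region and its flanks, over all 42 share tests for the others, and over 63 total-signal tests. Replicates are pools of embryos. The maternal and paternal counts of a library come from the same pool, so the library was also fitted as a block. Replicate numbers across crosses and tissues are only numbers. Alternatives were DESeq2 1.42.0, other scalings, filters, thresholds, pseudocounts and tile sizes, and leaving out each library. The code was tested on simulated data.

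The members, gene lists and tests were chosen with earlier results of these data known. Where the coordinates in a peak name and its position columns differed in the deposited tables, the columns were used. Peaks were named by the gene whose start they hold, else the overlapped gene, else the nearest within 10 kb. Named were the 20 imprinted ExE H3K27me3 peaks with the most reads, the nearest and farthest called peak on each side, called peaks of the other tables, matDKO/CAST calls (up to 10 per table), listed genes and the 5 tiles per direction with the largest change. The very long Fgfr2 gene model of the annotation overlaps many peaks and is not used as their name in the text.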

Additional observations from a re-analysis of the deposited data

Results flagged for a closer look

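Total H3K27me3 over the region in wild-type epiblast was 0.695 RPKM in CAST/B6 replicate 1, apart from the other 3 libraries, the lowest of which had 0.551. Total H3K4me3 over the region in wild-type epiblast was 0.616 RPKM in B6/CAST replicate 1, below the others, which reached 0.645. In each case the gap to the nearest library, divided by the range of the group, exceeded 0.829, which chance gives in about 1 of 20 groups, and 13 groups of 4 and 1 of 6 libraries, inputs included, were examined with 2 libraries standing apart. Without the H3K27me3 library the ratio of ExE to epiblast was 1.4, and without the H3K4me3 library it was 0.958.

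The H3K4me3 share of the telomeric flank differed between the tissues by -2.66 points (ExE minus epiblast, exact permutation p = 0.0286, n = 4 and 4, adjusted 0.3), with all 4 ExE libraries below all 4 epiblast libraries. The bias of ExE H3K27me3 differed between matDKO/CAST and B6/CAST in 15 peaks, which is a description since the region was chosen on the wild-type libraries.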

How the results depend on the processing

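Of 240 values under other settings 184 kept to within 1.5 times (counts) or 1 SD (shares) and 56 moved further. With DESeq2, ExE H3K27me3 gave 16 imprinted (42 by edgeR), 57 joint (95), 0 matDKO/CAST (3) and 5 interaction peaks (15), epiblast H3K27me3 0 imprinted (2), 5 joint (11) and 0 matDKO/CAST (2), and H3K4me3 0 imprinted and 1 joint in ExE (2 each) and 1 matDKO/CAST in epiblast (5). At an adjusted p below 0.01 the counts were 1 matDKO/CAST and 9 interaction peaks for ExE H3K27me3, 0 imprinted and 7 joint for epiblast H3K27me3, 1 imprinted for ExE H3K4me3 and 3 matDKO/CAST for epiblast H3K4me3. Requiring 20 reads in each cross left 1 imprinted and 1 joint ExE H3K4me3 peak. With the library as a replicate block, pairing the copies of a library, ExE H3K27me3 gave 7 matDKO/CAST and 36 interaction peaks, epiblast H3K27me3 6 imprinted, 5 matDKO/CAST and 1 interaction, ExE H3K4me3 5 joint, 5 matDKO/CAST and 2 interaction and epiblast H3K4me3 9 matDKO/CAST. For tiles, the replicate number as a block gave 52 matDKO/CAST tiles in epiblast H3K27me3 (26), 0 in ExE H3K4me3 (2) and 17 in epiblast H3K36me3 (3). Tiles of 50 kb gave 173 higher and 12 lower for H3K27me3 (621 and 39), 31 for H3K4me3 (114), 0 matDKO/CAST tiles for epiblast H3K4me3 (2) and 1 for epiblast H3K36me3. In matDKO/CAST ExE H3K27me3 (21 tiles) pseudocounts of 0.1 and 1 gave 7 and 36, no filter 3 and edgeR on recovered reads 33. In epiblast no filter gave 8 for H3K27me3 and 1 for H3K4me3, edgeR 15, 1 and 0 for H3K27me3, H3K4me3 and H3K36me3, and a pseudocount of 0.1 gave 1 for H3K36me3. The mean over peaks in place of pooled reads was 57.5% for wild-type ExE H3K27me3 (59.1), 47.5% for wild-type ExE H3K4me3 (49.0), 47.7% for matDKO/CAST epiblast H3K4me3 (48.6) and 49.1% for matDKO/CAST epiblast H3K36me3 (48.0). Scaled shares were 50.8% and 50.6% for matDKO/CAST H3K27me3 in ExE and epiblast (46.2 and 45.7), 53.9% for wild-type epiblast (53.0), 50.9% and 50.8% for matDKO/CAST H3K4me3 (48.9 and 48.6) and 49.9% and 50.7% for matDKO/CAST H3K36me3 (47.0 and 48.0). The cause of these changes was not tested.

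Leaving out 1 library at a time, ExE H3K27me3 gave 15 to 42 imprinted, 62 to 95 joint, 0 to 4 matDKO/CAST and 7 to 15 interaction peaks, and epiblast H3K27me3 0 to 4, 3 to 13, 0 to 5 and 0 to 1. ExE H3K4me3 gave 0 to 2 imprinted, 1 to 2 joint and 1 to 2 matDKO/CAST peaks, and epiblast H3K4me3 0 to 2 matDKO/CAST. Tiles gave 417 to 651 higher and 25 to 41 lower for H3K27me3, 2 to 45 and 0 to 82 matDKO/CAST tiles in ExE and epiblast, 71 to 121, 0 to 3 and 0 to 7 for H3K4me3 and 63 to 196 between the tissues and 1 to 89 in epiblast matDKO/CAST for H3K36me3. Wild-type and matDKO/CAST shares were 58.5 to 59.7% and 44.9 to 47.6% for ExE H3K27me3, 52.7 to 53.2% and 44.7 to 46.6% for epiblast H3K27me3, 48.8 to 49.3% and 48.0 to 49.7% for ExE H3K4me3, 49.4 to 49.99% and 48.3 to 48.9% for epiblast H3K4me3, 48.9 to 49.99% and 45.8 to 48.1% for ExE H3K36me3 and 49.6 to 50.2% and 47.8 to 48.1% for epiblast H3K36me3. The main fits called imprinted and matDKO/CAST peaks from the 2 libraries of each cross. Counts of imprinted, matDKO/CAST and interaction peaks with a library left out came from a fit pooled over crosses, so the model also changed. Epiblast peaks with few reads can show only large differences.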
